A study of Mus musculus with 2 samples.

Results

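This account describes 826 unannotated genes that lie antisense to known genes in mouse heart, found by long-read RNA sequencing. They were chosen from the genes that the deposited tables class as antisense, off the spike-in sequences, by 2 conditions: 5 or more reads in replicate 1, and reads in replicate 2 on an overlapping antisense gene of the same strand. They were 826 of the 876 antisense genes with 5 or more reads in replicate 1 (94.3%), and 7.79% of all 10605 antisense genes with a read there; replicate 2 had 10341 antisense genes. The tissue was heart of 2-month-old female B6CASTF1/J mice, an F1 hybrid of a C57BL/6 and a CAST strain, from The Jackson Laboratory. Both libraries belong to a single untreated group and are labelled as biological replicates, each made from 2 µg of total RNA with ERCC and SIRV spike-in RNAs added. The labels contradict each other on whether the replicates were animals 3 and 4 or came from the same animal, so the spread between the libraries may be technical and every p-value below covers counting error only.

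An antisense transcript is read from the strand opposite a known gene, so its sequence is complementary to any stretch of the sense transcript that it overlaps. Such transcripts can start at a promoter of their own, run in from a neighbouring gene, or arise within a gene body, and some are known to affect the transcription, splicing or stability of the sense RNA. Heart has well-studied examples, among them antisense transcripts of the myosin heavy chain locus. Long reads show the strand, exons and ends of such a transcript on a single molecule, where the strand is kept in the library.

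Replicate 1 held 905154 reads and replicate 2 held 745375, of which 859191 and 707758 fell on annotated genes; values in CPM are reads scaled to 1000000 reads of annotated genes. A single read equalled 1.16 CPM in replicate 1 and 1.41 in replicate 2. A gene without reads could lie at up to 3.49 CPM in replicate 1 and up to 4.24 in replicate 2. All 10 cardiomyocyte markers had reads in both libraries, from the ryanodine receptor gene Ryr2 at 126 and 138 CPM to the myosin gene Myh6 at 30444 and 34817 CPM. Antisense genes as a class held 3.31% of the reads off the spike-ins in replicate 1 and 3.41% in replicate 2. ERCC RNAs, which have no natural antisense partner, gave 93 antisense reads of 11019 in replicate 1 (0.844%, Wilson 95% interval 0.689 to 1.03%) and 46 of 7250 in replicate 2 (0.634%, 0.476 to 0.845%). These shares give the rate of antisense reads on RNAs that were added as sense molecules only.

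Antisense genes are named here by their sense gene, with a number in brackets for a further antisense gene on the same sense gene. The stretches at which the antisense genes ended carried the most recognisable feature of their sequence, so examples from highly read genes are shown. Each is read 5′ to 3′ on the antisense strand and covers the last 10 bases of the most-read model in lower case and the 20 genomic bases after its 3′ end in capitals. The letters come from GENCODE M21 transcripts of the sense gene, read on the other strand, with mm10 coordinates. The following 8 ends, all inside an annotated exon of the sense gene, were followed by A-rich genome.
Klhl31, chr9:77656647-77656676, minus strand: aaaaaaggaaAAAAAAAAAAAAAAAAAAAA
2900097C17Rik, chr2:156391504-156391533, plus strand: acacaaaatgTAAAAAAAAAAAAAAAAAAA
Msrb3, chr10:120783305-120783334, plus strand: aactttggacAAAAAAAAAAAAAAAATGGA
Pitpnc1, chr11:107211754-107211783, plus strand: acaccttaccAAAAAAAAAAAAAAAAGTTT
Qk, chr17:10212392-10212421, plus strand: tctttcaattAAAAACAAAACACAAAAGAA
Tacc1, chr8:25158024-25158053, plus strand: agattaaggcAAAAAAAAAAAAAAAAAAAA
Acot2, chr12:83993239-83993268, minus strand: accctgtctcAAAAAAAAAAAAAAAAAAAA
Mcu, chr10:59447979-59448008, plus strand: actaattagtAAAAAAAAAAAAAAAAAAAA

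A smaller set of highly read antisense genes ended where the genome was not rich in A, and 3 of them are shown in the same way for contrast. Of these, Nfia (2) ended at the base where another deposited antisense gene of Nfia began on the same strand, so its end may not be that of the reads.
Nfia (2), chr4:98113579-98113608, minus strand: gggcgggggcAGGAATAAAGGGAGACTCCA
Klhl24, chr16:20123793-20123822, minus strand: taagagcactGTCTGTTCTTCCAAAGGACC
Csnk2a1, chr2:152279229-152279258, minus strand: aaagaaaatcAGCCTATAATTTTTTTTTAT

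Reads were few for most of the antisense genes and many for a handful. They held a median of 8 reads in replicate 1 (5 to 1190, quartiles 6 and 14) and a median of 6 in replicate 2 (1 to 756, quartiles 3 and 13). Only 13 had more than 100 reads in both libraries, and 50 rested on 1 read in replicate 2. Together they held 15376 of the 29568 antisense reads of replicate 1 (52.0%) and, counting each matched gene a single time, 11075 of 25162 in replicate 2 (44.0%). Over the 826 genes the Pearson r of log2 CPM between the libraries was 0.80, a description only, since reads in replicate 1 chose the genes and low counts add scatter.

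The minimum of 5 reads divided genes that were much alike. At exactly 5 reads stood 187 antisense genes, with a median of 3 reads in replicate 2. Just below, at 4 reads, stood 347 antisense genes, of which 287 (82.7%) had a match in replicate 2, also with a median of 3 reads. Matching by overlap was not always 1 to 1. In 85 cases an antisense gene overlapped more than 1 gene of replicate 2, and 53 shared their replicate 2 gene with another, so 886 distinct genes of replicate 2 were matched and 798 loci remained after such antisense genes were joined.

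**Figure D1:**
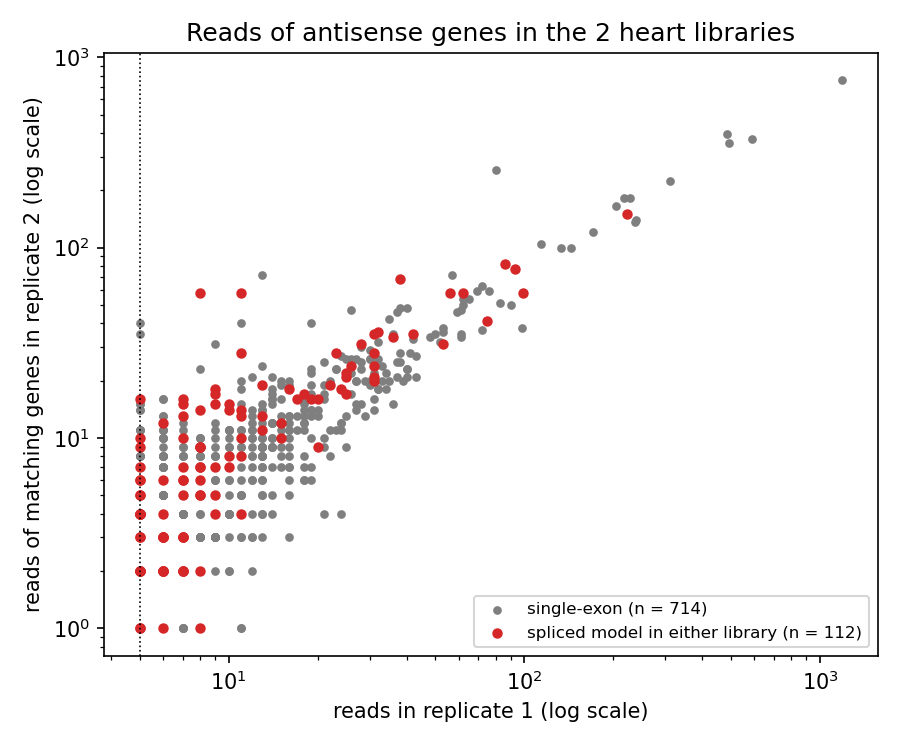
Reads of each antisense gene in replicate 1 (x axis, log scale) against the reads of the matching genes in replicate 2 (y axis, log scale), with spliced antisense genes in red and single-exon ones in grey. The dotted line marks the minimum of 5 reads; most points lie below 20 reads on both axes, and the gene opposite Gm26917, at 1190 and 756 reads, stands at the upper right.

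The antisense gene with the most reads lay opposite Gm26917, a long intergenic non-coding RNA gene. It covered chr17:39843013-39845074 on the minus strand and had 1190 reads in replicate 1 and 756 in replicate 2 (1227 ± 224 CPM, SD, n = 2), against 12 sense reads in each library. The annotated rRNA gene CT010467.1 ended 1279 bases before it on the same strand. A second antisense gene, opposite CT010467.1 itself (chr17:39846353-39846958, plus strand), had 90 and 50 reads against 0 sense reads in each, and began 12 bases after the end of Gm26917. Whether the reads of either antisense gene come from rRNA was not tested.

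Antisense reads outnumbered sense reads at many of the other highly read loci. Klhl31 encodes a Kelch family protein of striated muscle. Its antisense gene, over the 3′ UTR at chr9:77656667-77657521 (minus strand), had 587 and 371 reads, against 24 and 24 sense reads. The antisense gene of Tmem250-ps, a long non-coding RNA gene (chr2:26136814-26138383, plus strand), had 493 and 353 reads, against 10 and 2 sense reads. Antisense reads were 96.1% and 93.9% of the locus reads at Klhl31 in replicates 1 and 2, and 98.0% and 99.4% at Tmem250-ps.

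The antisense gene of Cdv3 (chr9:103354469-103355313, plus strand), also over the 3′ UTR, had 236 and 136 reads, against 11 and 15 sense reads. On its strand, Topbp1, which encodes a protein of the DNA damage response, ended 4041 bases before it. Nfia, a transcription factor of the nuclear factor I family, had a pair of antisense genes over its 3′ UTR that met at base 98113599 of chromosome 4. The downstream one (chr4:98111218-98113599, minus strand) had 228 and 183 reads. The upstream one (chr4:98113599-98114113) had 80 reads in replicate 1; in replicate 2 it overlapped both the downstream gene of 183 reads and a gene of 73 reads, which met at base 98113601. Together the pair had 308 and 256 reads, against 13 and 11 sense reads for Nfia.

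At several loci with many antisense reads the sense gene was also well read. Tnnt2 encodes cardiac troponin T, the tropomyosin-binding subunit of the thin filament. Its antisense gene lay in an intron at chr1:135849741-135850379 (minus strand) and had 311 and 225 reads, against 327 and 231 sense reads, so antisense and sense reads were close to equal in each library (48.7% and 49.3% antisense). Actb, the cytoplasmic actin gene, had an antisense gene mostly past its annotated 3′ end (chr5:142900970-142903654, plus strand) with 205 and 166 reads, against 217 and 180 sense reads. Qk encodes the RNA-binding protein Quaking, a splicing regulator. The antisense gene over its 3′ UTR (chr17:10209631-10213359, plus strand) had 223 and 150 reads, against 380 and 369 sense reads.

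Dhrs3, a retinal reductase gene, carried a short antisense gene of 143 bases over its 5′ UTR (chr4:144893077-144893219, minus strand) with 238 and 139 reads, against 65 and 56 sense reads. The long non-coding RNA gene 2900097C17Rik (chr2:156388065-156391513, plus strand for the antisense gene) had 218 and 183 antisense reads, against 104 and 96 sense reads. Over the 3′ UTR of Msrb3, a methionine sulfoxide reductase gene, the antisense gene (chr10:120782141-120783314, plus strand) had 171 and 121 reads, against 69 and 72 sense reads. That of Pitpnc1, a phosphatidylinositol transfer protein gene (chr11:107207892-107211763, plus strand), had 144 and 100 reads, against 30 and 33 sense reads, and that of the septin gene Sept2 (chr1:93507713-93509733, minus strand) had 133 and 100 reads, against 30 and 32. Antisense genes of Dhrs3, 2900097C17Rik, Msrb3, Pitpnc1 and Sept2 thus had more reads than their sense gene in both libraries.

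Over the whole set, antisense reads made up a median of 29.2% of the locus reads in replicate 1 (0.0923 to 100%, quartiles 10.2 and 62.5%) and 25% in replicate 2 (0.0866 to 100%, quartiles 7.06 and 59.3%). The share exceeded 50% at 266 of 825 antisense genes in replicate 1 and at 231 in replicate 2, and antisense reads outnumbered sense reads in both libraries at 203 (24.6%). These shares counted every model of the sense gene; counting annotated sense models alone gave a median of 57.1% (mean of both libraries), against 29.3% with all models. Since antisense reads chose the genes, the shares are a description and were not tested.

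Within the set, antisense reads did not follow sense reads from locus to locus. Across 825 antisense genes the Pearson r of log2 antisense reads with log2 sense reads (1 added) was 0.01 and Spearman's rho of the reads was -0.01, given as a description over loci of the same libraries. Because a minimum of antisense reads chose the set, these values cannot tell whether antisense and sense reads are related over all loci. In both libraries 12 antisense genes, and in either library 29, had a share at or under the antisense share of the ERCC RNAs. The 12 lay opposite Atp2a2, Tpm1, Myl3, Actn2, Hadhb, Uqcrc1, Sdha, Sdhb, Ndufa13 and Etfa; with at least 5 antisense reads, a share this low is possible only at highly read sense genes. Examples are Atp2a2, which encodes the calcium pump SERCA2, with 9 and 18 antisense reads against 8651 and 8700 sense reads, and Tpm1, the tropomyosin gene, with 8 and 6 against 8663 and 6923. At the other end, 33 antisense genes lay opposite a sense gene with 0 reads in both libraries. Of antisense genes without sense reads in either library, the 5 with the most reads lay opposite CT010467.1, Gm10874 (61 and 35 antisense reads), Mir8091 (41 and 28), Lncpint (35 and 42) and Gm11190 (31 and 20). Those of Gm10874 and Mir8091 lay mostly outside the sense gene, with 452 of 453 and 3950 of 4089 bases beyond it. CT010467.1 is an rRNA gene and Mir8091 a miRNA gene, so their lack of sense reads need not mean that they are silent.

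**Figure D2:**
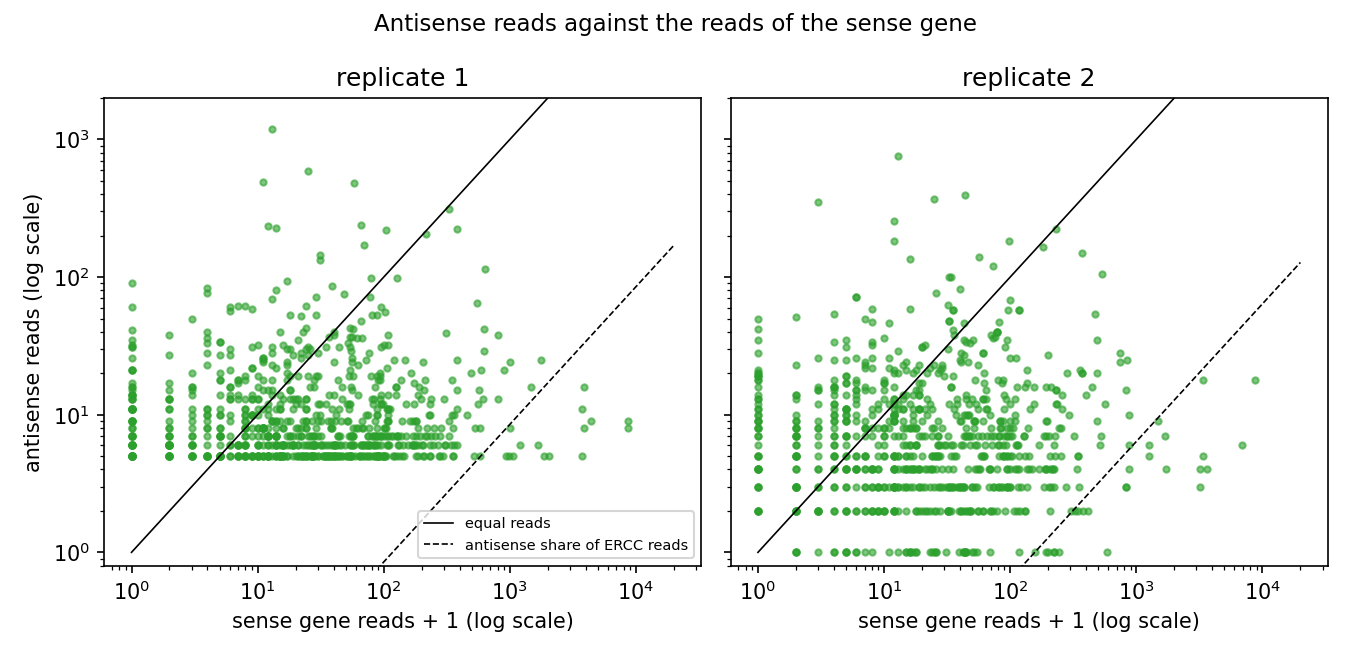
Antisense reads (y axis, log scale) against reads of the sense gene plus 1 (x axis, log scale) for each antisense gene, with replicate 1 on the left and replicate 2 on the right. The solid line marks equal reads and the dashed line the antisense share of ERCC reads (0.844% and 0.634%); 203 antisense genes had more antisense than sense reads in both libraries, and 12 lay at or under the ERCC share in both.

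An annotated gene lay on the other strand of 825 of the 826 antisense genes, and 774 of these (93.8%) were opposite a protein-coding gene and 26 opposite a long intergenic non-coding RNA gene. They covered 709 distinct sense genes. More than 1 antisense gene was found on 86 sense genes, and the most, 8, on Ryr2. Sense genes had a median of 25.9 CPM, against 9.85 CPM for all 15848 annotated genes with a read; the part of this difference in level in the choice of the set was not tested.

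Most antisense genes lay over introns or the 3′ UTR of the sense gene. Each was placed by the part of the sense gene under most of its bases. Introns took 404 antisense genes (49.0%) and the 3′ UTR 303 (36.7%). Exons of non-coding transcripts took 48, bases beyond the sense gene 44, coding exons 16 and the 5′ UTR 10. A sense exon was overlapped by at least 1 base in 604 cases (73.2%).

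As deposited, antisense genes over the 3′ UTR were shorter and held more reads than those over introns. Many models stop exactly at annotated ends of the sense gene, as given below. The part of this in length and class was not tested. Their median length was 967 bases in the 3′ UTR, against 2503 in introns, and their median reads in replicates 1 and 2 were 12 and 9 in the 3′ UTR, against 7 and 5 in introns. The 3′ UTR class held 49.6% of the reads of the set in replicate 1, against 25.6% for the intron class and 16.4% for the non-coding exon class, to which Gm26917 alone gave 1190 of 2527 reads. The median antisense share of locus reads was 44.4% and 37.9% over the 3′ UTR, against 19.0% and 15.4% over introns. Over all antisense genes the median length was 1804 bases (1 to 257047, from end to end with introns). The middle of the antisense gene lay at a median of 62.3% of the way along the sense gene from its 5′ end (quartiles 21.4 and 95.5%).

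**Figure D3:**
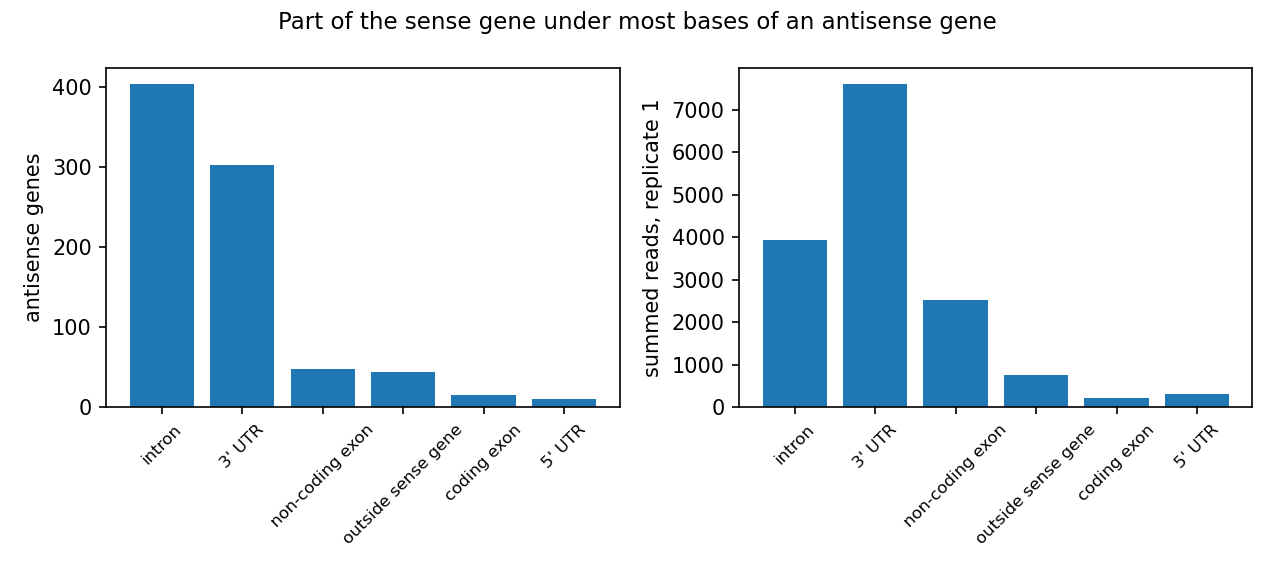
Number of antisense genes (left) and their summed reads in replicate 1 (right) by the part of the sense gene that lies under most of their bases. Introns held the most antisense genes (404, against 303 for the 3′ UTR), while the 3′ UTR held the most reads (7616, against 3930 for introns).

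Many ends of the deposited models coincided to the base with annotated ends on the other strand. The 3′ end of 227 antisense genes (27.5%) and the 5′ end of 247 (29.9%) fell exactly on an exon boundary of an annotated gene of the opposite strand. The 5′ end lay exactly at an annotated 3′ end of the sense gene in 109 cases, against 1 case at 1 to 25 bases from one. The 3′ end lay exactly at an annotated start of the sense gene in 42 cases and at 1 to 25 bases in 0. Ends on a boundary are therefore kept apart below from ends off the boundaries. Models of 1 base made up 15 antisense genes, among them those opposite Gnb1 (53 and 31 reads) and, on a boundary, Ets1 (37 and 21 reads). Lengths and ends of such models are as deposited and do not give the extent of the reads. Both ends lay on boundaries at the antisense genes of Gm26917, Tmem250-ps, Tnnt2, Dhrs3 and Sept2, among others. Their lengths and positions are also as deposited and may not give the extent of the reads.

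Where ends were off the boundaries, 3′ ends recurred between the libraries more closely than 5′ ends. Distances were taken between the outer ends of the antisense gene and of the replicate 2 gene that overlapped it most. Boundaries were judged at the most-read model of replicate 1. The outer 3′ end lay within 10 bases in both libraries in 429 of 599 antisense genes (71.6%) and at the same base in 311, with a median distance of 0 bases. The outer 5′ end lay within 10 bases in 175 of 579 (30.2%), at the same base in 93, with a median distance of 324 bases. Antisense genes of Msrb3, Pitpnc1 and Tacc1, whose ends are printed above, had their outer 3′ ends at the same base in both libraries. The outer 3′ ends of the Qk antisense gene lay 958 bases apart. Its end printed above is that of the most-read model in replicate 1 and not the outer one.

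**Figure D4:**
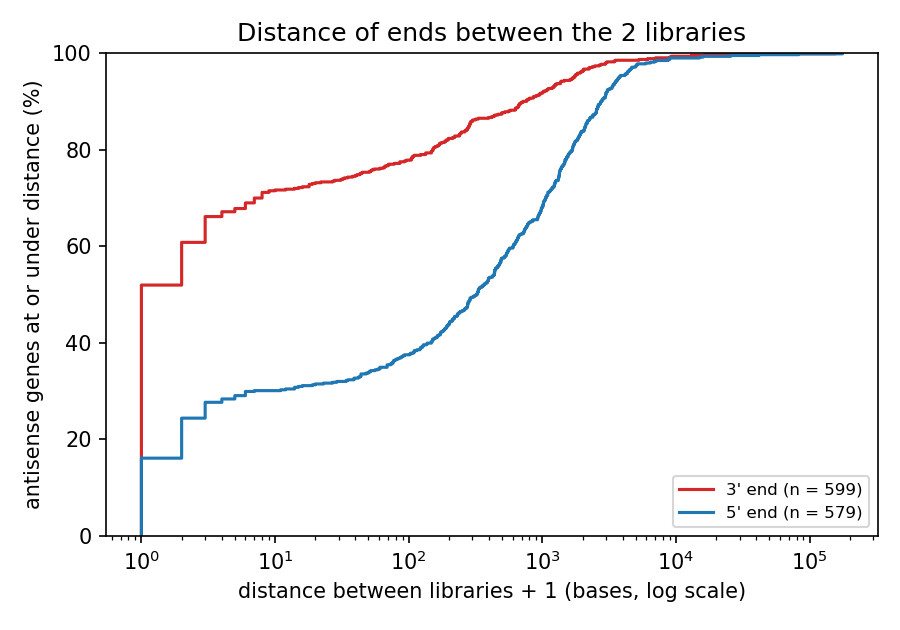
Cumulative share of antisense genes (y axis, %) whose outer 3′ ends (red, n = 599) or outer 5′ ends (blue, n = 579) lay at or under a distance between the libraries (x axis, bases plus 1, log scale). Antisense genes are those whose most-read model in replicate 1 had that end off annotated exon boundaries. At 10 bases the curves stand at 71.6% for 3′ ends and 30.2% for 5′ ends.

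Known genes and starts on the same strand were looked for near the 5′ ends of the most-read models. These ends are uncertain: 247 fell on boundaries, and off boundaries the outer 5′ ends differed by a median of 324 bases between libraries. A same-strand annotated gene ended within 5000 bases before 91 of the 826 (11%), and the median distance to the nearest such gene was 40688 bases. RefSeq start windows, 250 bases before to 50 after a gene's start, held the 5′ end of a single antisense gene, that of Kazn. Only genes classed as unannotated entered the set, so this count was largely limited in advance and does not tell where the antisense genes start. The 5′ end lay within 1000 bases of an annotated start of the sense gene in 89 cases (10.8%) and within 1000 bases of an annotated 3′ end of the sense gene in 284 (34.4%), which counts the coinciding ends.

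Genome rich in A followed most 3′ ends for which the letters could be read. Sequence after the end came from sense exons, which covered 425 of the 826 ends (51.5%), so no statement is made for the antisense genes that ended in introns or outside genes. Among 253 ends off the boundaries, 200 (79.1%) had at least 60% A in the 20 bases after the end, with a median of 85% A and a median longest run of 10 A; in 43 all 20 bases were A. Of all 20-base windows on the same strand of the sense genes' longest transcripts, 2.04% reached 60% A. Ends on a boundary were A-rich in 19 of 172 cases (11%), with a median of 30% A.

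The share of A-rich ends was much alike at low and high read numbers. By summed reads of both libraries the share was 79.5% under 10 reads, 79.1% from 10 to 19, 79.7% from 20 to 49 and 77.6% from 50 up. Antisense genes of replicate 1 outside the set showed 750 A-rich ends of 994 off the boundaries (75.5%) and 62 of 1097 on them (5.65%). Outer 3′ ends lay within 10 bases between the libraries in 146 of 200 antisense genes with A-rich ends. They did so in 15 of 53 with other ends off the boundaries, with median distances of 0 and 66 bases. The A content was that after the most-read model of replicate 1, which need not reach the outer end. The median antisense share of locus reads was 47.7% for antisense genes with A-rich ends, against 33.2% for those with other ends. An oligo(dT) primer can anneal to a poly(A) tail or to A-rich sequence within an RNA or DNA molecule; which of these gave the ends was not tested, and the primer is not given in the sources used here.

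**Figure D5:**
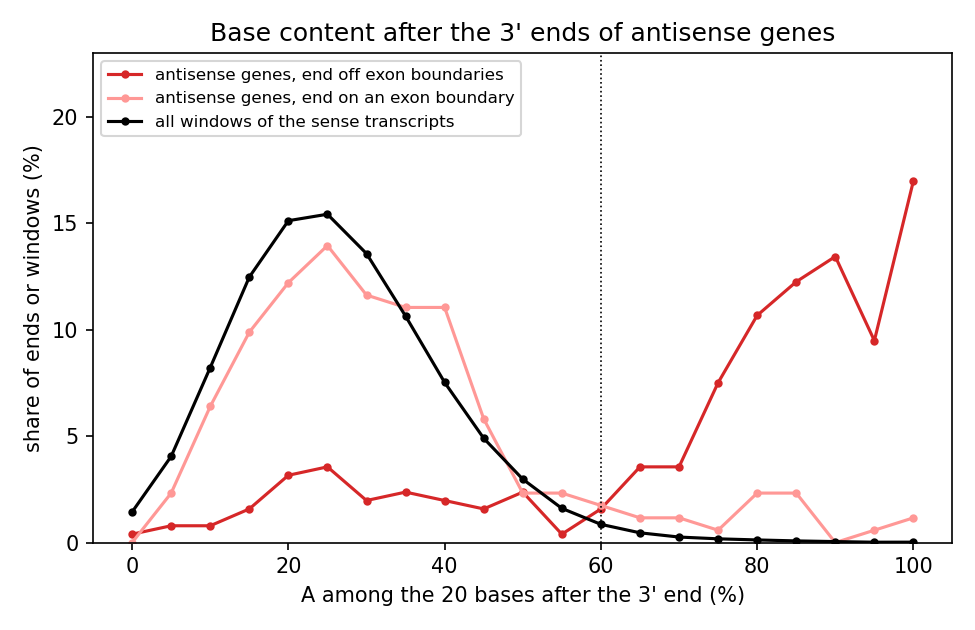
Share of antisense gene ends or of background windows (y axis, %) by the percentage of A among the 20 bases after the 3′ end (x axis), for ends off annotated exon boundaries (red, n = 253), ends on a boundary (pink, n = 172) and all 20-base windows on the other strand of the sense transcripts (black). Ends off the boundaries peak at 100% A, while the other curves peak at 25%; the dotted line marks 60%.

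Poly(A) signals were about as frequent before these ends as in windows at large. AATAAA or ATTAAA, the hexamers that direct cleavage and polyadenylation, stood in the 40 bases before 21 of 414 ends with sequence (5.07%), against 3.90% of all 40-base windows on the same strand; the reverse complement of the main hexamer, TTTATT, stood before 5 (1.21%, against 1.78%). Off the boundaries the hexamers stood before 12 of 254 ends (4.72%). A few examples follow, each the 30 bases up to the 3′ end, with the hexamer in capitals.
Lsm12, chr11:102163526-102163555, plus strand: AATAAAactaattcaagccatgccctgtgc
Stk38l, chr6:146775906-146775935, minus strand: tccagtacctttgtatAATAAAgttaatac
Cln8, chr8:14897936-14897965, minus strand: aAATAAAtaggcatcatacctcctcataaa
Actr2, chr11:20063235-20063264, plus strand: atccATTAAAaattctgattttaagcatcc

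The genome after the end was also A-rich at Lsm12 (90%), Stk38l (90%) and Actr2 (95%), and not at Cln8 (30%), whose antisense gene had 19 and 14 reads and ended within 2 bases in both libraries. The letters CCCTGTCTC, found near the tail of mouse B1 short interspersed repeats, stood within the 40 bases before 8 of 414 ends, against 0.0698% of windows; the Acot2 end printed above is an example. Their reverse complement stood before 0 of 414 ends and in 0.0603% of windows. Whether these stretches are repeats was not looked up in a repeat annotation.

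Splicing was seen in 112 of the 826 antisense genes (13.6%), in 83 from replicate 1 models and in 79 from replicate 2 models, with 50 spliced in both. Among all antisense genes with a read, 5.02% in replicate 1 and 5.13% in replicate 2 had a model of 2 or more exons; the set was chosen for its reads, and the part of depth in that difference was not tested. Spliced reads were 430 of the 15376 reads of replicate 1 (2.80%), and in 33 antisense genes they were at least 50% of the reads. The longest models had 7 exons, and 39 antisense genes had a model of 3 or more. Models of replicate 1 held 182 introns, of which 97 were found at the same bases in replicate 2.

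Spliced antisense genes fell into those whose introns mirrored the sense gene and those with introns of their own. Of the 182 introns, 51 had the coordinates of an annotated intron of the sense gene, and 30 of the 83 antisense genes spliced in replicate 1 had such an intron. The genes with the most spliced reads were of this kind. Bcl2l1 encodes the anti-apoptotic protein BCL-XL. Its antisense gene (chr2:152824663-152832178, plus strand) had 55 of 56 reads spliced in replicate 1; in replicate 2 it overlapped a gene with 41 of 48 reads spliced and a gene of 10 unspliced reads. Both of its recurrent introns were at the place of a sense intron. Of the antisense gene of Mbnl1, which encodes the splicing regulator muscleblind-like 1 (chr3:60529549-60579038, minus strand), 30 of 31 reads in replicate 1 were spliced, with 1 recurrent intron, at a sense intron. Its replicate 2 gene, with 17 of 28 reads spliced, also overlapped Mbnl1 (2), of 11 unspliced reads in replicate 1, so the joined locus had 30 of 42 and 17 of 28 reads spliced.

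The antisense gene of Ccdc80, which encodes a secreted matrix protein (chr16:45094029-45095844, minus strand), had 26 of 26 and 20 of 24 reads spliced over 2 recurrent introns at sense introns. That of Ubl3, a ubiquitin-like protein gene (chr5:148509279-148552157, plus strand), had all 25 and all 17 reads spliced over 2 such introns. The antisense gene of Crebbp, a histone acetyltransferase gene, had 5 recurrent introns, all 5 at sense introns, with 22 and 19 antisense reads against 8 and 4 sense reads. Antisense reads made up 11.3 to 41.9% of the locus reads at Bcl2l1, Mbnl1, Ccdc80 and Ubl3 over both libraries. Whether the strand of these reads was reported the wrong way round at these loci was not tested.

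Introns away from any sense intron recurred too. Of the 97 recurrent introns 33 were at a sense intron, and 30 of the 48 antisense genes with a recurrent intron had at least 1 that was not. At 9030025P20Rik the antisense gene (chr17:14981576-14992855, minus strand) had 16 of 17 and 16 of 16 reads spliced, with 6 recurrent introns, 0 at a sense intron, against 1 and 3 sense reads. Opposite Plscr5 the antisense gene (chr9:92141730-92227261, minus strand) had 11 and 13 reads and 8 recurrent introns, and opposite Gm43669 (chr3:115514205-115641528, minus strand) 11 and 14 reads and 5 recurrent introns, against 0 sense reads in both libraries for each. Both extended mostly beyond the sense gene. Shorter ones included that of Cep85, which lay mostly over introns of the sense gene.

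The antisense gene of Cep85, a centrosomal protein gene (chr4:134159923-134164628, plus strand), had 31 and 24 reads and 3 recurrent introns of its own, against 53 and 40 sense reads. Ankrd1 encodes a cardiac ankyrin repeat protein that responds to stretch. Its antisense gene (chr19:36115075-36118853, plus strand) had 8 and 9 reads and 3 recurrent introns of its own, against 250 and 195 sense reads. Those of Etl4 (13 and 11 reads, 3 recurrent introns), Rusc2 (7 and 6 reads, 4 recurrent introns) and Kazn (5 and 5 reads, 3 recurrent introns) were alike in that 0 of their introns were at a sense intron.

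The share of spliced reads was compared between the libraries for the 517 antisense genes of the set with at least 5 reads in each. Only 79 of the 517 had a spliced read in either library. Without one the test can call nothing, at single antisense genes or at the joined loci below. Fisher's exact test with Benjamini-Hochberg adjustment over the 517 called 2, or 0.387%, and 7 had an unadjusted p under 0.05. Both calls were at Bcl2l1: 55 of 56 reads in replicate 1 against 41 of 58 in replicate 2 (adjusted p = 0.022), and its neighbour Bcl2l1 (2) with 0 of 8 against the same 41 of 58 (adjusted p = 0.049). Each of the pair overlapped the same 2 genes of replicate 2, so the 58 reads were counted for both. With antisense genes joined where they shared a replicate 2 gene, a step chosen after seeing the data, Bcl2l1 had 55 of 64 and 41 of 58 spliced reads and Fisher's exact test called 0 of 491 loci, at an unadjusted p of 0.048 for Bcl2l1 with an adjusted p of 1.0.

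Heart genes of known function were among the sense genes. Of 110 genes on lists of heart and cell type genes, 27 (24.5%) had an antisense gene of the set, against 678 of 15848 annotated genes with a read (4.28%); the lists were chosen with earlier results of these data known, and the difference was not tested. By list, 5 of 10 cardiomyocyte genes had one (Tnnt2, Myl3, Ryr2, Atp2a2 and Ttn), 7 of 20 sarcomere and Z-disc genes (Myh7, Myh7b, Tpm1, Actn2, Ldb3, Myoz2 and Myom2), 6 of 13 calcium and channel genes (Casq2, Slc8a1, Cacna1c, Kcnj11, Gja1 and Trdn) and 4 of 30 energy metabolism genes (Uqcrc1, Sdha, Hadhb and Cd36). Of the lists for other cell types, the endothelial list had 2 of 8 (Flt1 and Egfl7), the fibroblast list 1 of 8 (Sparc), the mural list 1 of 6 (Rgs5) and the adipocyte list 1 of 5 (Plin1). The macrophage list had 0 of 6 and the red cell list 0 of 5.

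Ryr2, the calcium release channel of the sarcoplasmic reticulum, had 8 antisense genes, all mostly over introns and all on the plus strand of chromosome 13; the overlap with a sense exon was at most 122 bases. The most read (12098163-12104521) had 38 and 68 reads, and the next (11860632-11864520) had 32 and 26, against 108 and 98 sense reads for the whole gene. The other 6 had 6 to 14 reads in replicate 1 and 4 to 12 in replicate 2. Of the 8, 7 ended off the boundaries, and all 8 had outer 3′ ends within 2 bases between the libraries. Ttn, the gene of the sarcomeric spring titin, had 3, also mostly over introns, though Ttn (2) and Ttn (3) overlapped 739 and 2532 bases of coding exon, with 16, 14 and 5 reads in replicate 1 and 13, 9 and 4 in replicate 2, against 123 and 108 sense reads. Tnnt2 had, besides its main antisense gene, a pair of models over chr1:135838908-135844752 that shared a replicate 2 gene of 15 reads.

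At Ldb3, Rgs5, Trdn, Gja1 and Hadhb, well-read genes of the lists, antisense reads were a small share of the locus. Listed genes with few sense reads need not be alike in this. Ldb3 encodes a Z-disc protein. Its antisense gene (chr14:34575837-34583565, plus strand) had 25 and 21 reads, of which 6 and 6 were spliced over 1 recurrent intron away from any sense intron, against 378 and 360 sense reads. Rgs5, a regulator of G protein signalling and pericyte marker, had 39 and 20 antisense reads over its 3′ UTR, against 310 and 279 sense reads. Trdn encodes triadin of the calcium release complex and had 20 and 14 intronic antisense reads, against 494 and 400 sense reads.

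Gja1 encodes connexin 43, the main gap junction protein of ventricular muscle. Its pair of antisense genes over the 3′ UTR met at base 56389445 of chromosome 10 in replicate 1, with 24 reads downstream and 8 upstream, and at base 56389479 in replicate 2, with 4 reads downstream and 6 upstream. Together they had 32 and 10 reads, against 1004 and 874 sense reads. The beta subunit of the mitochondrial trifunctional protein, Hadhb, had 16 and 18 antisense reads mostly over an intron (5 of the 18 on a replicate 2 gene shared with Hadhb (2)), against 3885 and 3395 sense reads, at a share below that of the ERCC RNAs in both libraries. In bulk heart tissue the cell type in which an antisense gene was transcribed cannot be read from these counts, and fewer cells of a type and less RNA per cell cannot be told apart.

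Reads of the sense genes, which the choice of the set did not use, were compared between the libraries by an exact conditional binomial test over all annotated genes with at least 10 reads in total. None of the 563 sense genes tested was called (adjusted p below 0.05 and a difference of at least 2-fold), where 0.321% of all 9334 genes tested were called (30). At an unadjusted p under 0.05 stood 57 of the sense genes, and 796 of all genes; edgeR's exact test with preset variation called 0 and had 1 at an unadjusted p under 0.05. The median log2 ratio of replicate 2 to replicate 1 was 0.07 for the sense genes and 0.05 for all genes. Without the fold minimum 6 sense genes passed, among them Acss1, Atp2a2, Gpcpd1, Ndufa13 and Pam, where 1.15% of all genes did; Gpcpd1 had the largest ratio, with 256 reads in replicate 2 against 180 in replicate 1 (log2 ratio 0.79, exact binomial test, adjusted p = 4.6e-06).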

How the data were processed

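Long-read RNA-seq of 2 heart libraries of 1 group was used. The authors deposited counts of reads per transcript model, whole numbers that were not normalized, quantified with TALON against GENCODE M21 on mm10, per the file headers and the files' own text; exon numbers, lengths and coordinates are as deposited. The aligner, filters and primer are not given in the sources used here. Members and lists were chosen with earlier results of these data known.

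Reads were summed per gene. Antisense genes were matched between libraries by an overlap of at least 1 base on the same strand. The sense gene was the annotated gene with the most exonic overlap on the other strand. Ends are those of the most-read model in replicate 1, except for distances between the libraries. Those distances are between the outer ends of the antisense gene and of the replicate 2 gene that overlapped it most. Sense genes were tested by an exact conditional binomial test, two-sided (scipy 1.17.1), spliced shares with Fisher's exact test, with Benjamini-Hochberg adjustment; log2 ratios had 0.5 reads added. edgeR 4.0.16 and DESeq2 1.42.0 gave alternative factors. With 1 group of 2 libraries, edgeR's quasi-likelihood test had no residual degrees of freedom. The tests were tried on simulated data. Intervals and limits cover counting error only.

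No genome was used. Sequence after 3′ ends was read from GENCODE M21 transcripts of the other strand and covered 51.5% of ends, so the planned check over all of them is void, and windows of the sense transcripts replaced the planned comparison with annotated models. RefSeq start windows are of GRCm38.

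Named antisense genes were the 15 with the most reads, the 5 with the highest antisense share among those with at least 20 reads, the 5 with the most spliced reads, the 10 most read on listed genes, and called sense genes. Others, including those with recurrent introns of their own, the remaining listed genes and the printed ends, were chosen after their values were seen. Some genes that the rule takes are left out of the text.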

Additional observations from a re-analysis of the deposited data

Results flagged for a closer look

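Antisense genes seen in a single library lie outside the set. In replicate 2, 29 antisense genes with 5 or more reads had no overlapping antisense gene in replicate 1 (median 5 reads, 4 spliced), and in replicate 1, 50 had none in replicate 2 (median 6.5 reads, 3 spliced). The most read in both lists lay opposite Furin, a proprotein convertase gene, as models of 1 base on the plus strand of chromosome 7, at 80389581 with 36 reads in replicate 2 and at 80389618 with 79 reads in replicate 1. They do not overlap, so this locus was left out by the overlap rule although reads were present in both libraries.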

How the results depend on the processing

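The number of antisense genes was 1579 with a minimum of 3 reads, 326 with 10 and 517 with 5 reads in replicate 2 too, against 826; it was 719 to 808 with the libraries' roles swapped, joined loci or an overlap of at least 50% of the shorter gene. Spliced antisense genes were 50 when required in both libraries, 33 when at least 50% of the reads had to be spliced, and 79 to 83 without either library, against 112. The median antisense share was 57.1% with annotated sense models only and 25 to 29.2% without either library. Sense genes called between the libraries were 6 without the fold minimum and 0 under TMM and DESeq2 factors, minimums of 20 and 1 reads, and edgeR's exact test. Calls of the spliced share were 1 with at least 10 reads in each library (228 tested) and 0 with joined loci, against 2. Counts of sense exon overlaps and A-rich ends stayed within 1.5 times of their values under their alternatives. The number of antisense genes and both tests need 2 libraries, so no library could be left out there. No paired analysis was possible because the series has 1 group. The median of 8 reads in replicate 1 limits splicing, ends and shares for those genes.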
